A study of Sus scrofa with 6 samples.

Results

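The miR-29 family is represented in this table of porcine skin miRNAs by 3 entries, ssc-miR-29a, ssc-miR-29b and ssc-miR-29c. They were chosen by name, as every entry with a porcine miRBase-style name whose stem is miR-29a, miR-29b or miR-29c, and make up 3 of the 898 miRNAs listed and 3 of the 280 with such a name. Each member is listed once, without an arm suffix. Small RNA was sequenced from skin tissue of Xiang pigs (Sus scrofa), a miniature breed from China, in 6 libraries. Black skin gave 3 of them (S03, S04 and S05) and white skin the other 3 (S02, S06 and S07). All 6 samples were alcohol-cleaned skin with the hair taken off, kept frozen in the same RNA preservative, and skin colour is the only difference the labels give. The series was made to find miRNAs and mRNAs that bear on melanin formation in this breed. The labels name no animal, age, body site or batch, so each p-value speaks only of the variation among these libraries, part or all of which may be technical.

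miR-29 miRNAs are known above all as repressors of the extracellular matrix. In human and mouse fibroblasts they pair with sites in the mRNAs of fibrillar and basement membrane collagens, elastin and fibrillin, and transforming growth factor beta, which drives matrix deposition, lowers their level. The mature forms share a seed, the short stretch near the 5′ end that selects targets, and differ in the bases after it, so they are thought to act on largely the same mRNAs. In human cells miR-29b also carries a 3′ end element that directs it to the nucleus, which miR-29a lacks. The table measures small RNA only, and no collagen mRNA was analysed here.

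The 3 members come from 4 precursors in 2 clusters of the pig genome (RefSeq annotation of Sscrofa11.1). MIR29B-1 lies on chromosome 18 at 18039629 to 18039709, and MIR29A follows at 18040032 to 18040117, with 322 bases between them. Both lie outside annotated genes, and the nearest protein-coding gene is KLF14, a transcription factor gene, 107.0 kb beyond MIR29A. MIR29B-2 lies on chromosome 9 at 135019079 to 135019162, and MIR29C follows at 135019638 to 135019725, with 475 bases between them. Both are likewise intergenic, and CD46, which encodes a complement regulator, lies 5.7 kb beyond MIR29C. ssc-miR-29a therefore reports on the cluster of chromosome 18 and ssc-miR-29c on that of chromosome 9, while ssc-miR-29b can come from either, and its single value does not separate them. The mature forms are close in sequence, so reads could be exchanged between members in counting, and how shared reads were assigned is not given in the sources used here.

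The family was present in every library and was made up almost wholly of ssc-miR-29a. Values are RPM, reads per 1e+06 reads of all listed miRNAs in a library. Libraries held 6454685 to 10165949 such reads, recovered from the RPM values. The 3 members together took 0.355% (S03), 0.381% (S04) and 0.426% (S05) of the reads in black skin and 0.437% (S02), 0.328% (S06) and 0.395% (S07) in white skin. The group means were 0.387 ± 0.0359% in black skin and 0.387 ± 0.0547% in white skin (SD, n = 3 each), and the ranges overlapped. Within the family ssc-miR-29a took 95.6 ± 0.452% of the reads in black skin and 96.7 ± 0.479% in white skin. ssc-miR-29b took 2.89 ± 0.443% in black skin and 1.76 ± 0.209% in white skin, and ssc-miR-29c took 1.49 ± 0.140% in black skin and 1.58 ± 0.310% in white skin (SD, n = 3). By mean RPM over the 6 libraries ssc-miR-29a ranked 31st of the 898 miRNAs, ssc-miR-29b 137th and ssc-miR-29c 156th. Levels of different miRNAs also carry the biases of adapter ligation, so the order within the family is that of the reads.

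ssc-miR-29a, the abundant member, did not separate the groups. It measured 3388 RPM in S03, 3661 RPM in S04 and 4053 RPM in S05 of black skin, and 4235 RPM in S02, 3182 RPM in S06 and 3795 RPM in S07 of white skin. Both the lowest and the highest value came from white skin, so the black libraries lay inside the white range. The means were 3700 ± 334 RPM in black skin and 3737 ± 529 RPM in white skin (SD, n = 3). The difference, black minus white on the log2(RPM + 1) scale, was -0.01 with a standard error of 0.17 and a 95% interval of -0.40 to 0.38 (limma, Benjamini-Hochberg adjusted p = 0.976 over 454 tested miRNAs). ssc-miR-29a was also among the steadier miRNAs: its SD within groups was 0.17 on the log2 scale, and 89.0% of the tested miRNAs had a larger one.

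ssc-miR-29c, the scarcest member, likewise showed overlapping groups. It measured 47.5 RPM in S03, 57.7 RPM in S04 and 68.8 RPM in S05 of black skin, against 56.7 RPM in S02, 49.9 RPM in S06 and 75.4 RPM in S07 of white skin. The lowest value was in black skin and the highest in white skin, with the rest interleaved. Means were 58.0 ± 10.7 RPM in black skin and 60.7 ± 13.2 RPM in white skin (SD, n = 3). The log2 difference was -0.06 (standard error 0.26, 95% interval -0.65 to 0.54, limma adjusted p = 0.913). The intervals of both members span 0, and the signs of both differences turned with upper-quartile scaling (0.07 for ssc-miR-29a and 0.02 for ssc-miR-29c).

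ssc-miR-29b had the largest difference of the 3 members, and it missed the threshold over all miRNAs. It measured 110.5 RPM in S03, 90.4 RPM in S04 and 134.7 RPM in S05 of black skin, against 76.0 RPM in S02, 51.3 RPM in S06 and 78.1 RPM in S07 of white skin. Every black library lay above every white library. The means were 112 ± 22.2 RPM in black skin and 68.5 ± 14.9 RPM in white skin (SD, n = 3), a ratio of 1.63. The log2 difference was 0.71 (standard error 0.26, 95% interval 0.11 to 1.30), with an unadjusted limma p of 0.0247 and an adjusted p of 0.137. A two-sided exact permutation test gave p = 0.1, the smallest that 3 against 3 libraries allow. The result has to be read against a background in which 116 of the 454 tested miRNAs (25.6%) had an unadjusted p under 0.05 and 124 (27.3%) had no overlap between the groups, 61 of them (13.4%) with the higher values in black skin. By its p-value ssc-miR-29b ranked 82nd of the 454.

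**Figure D1:**
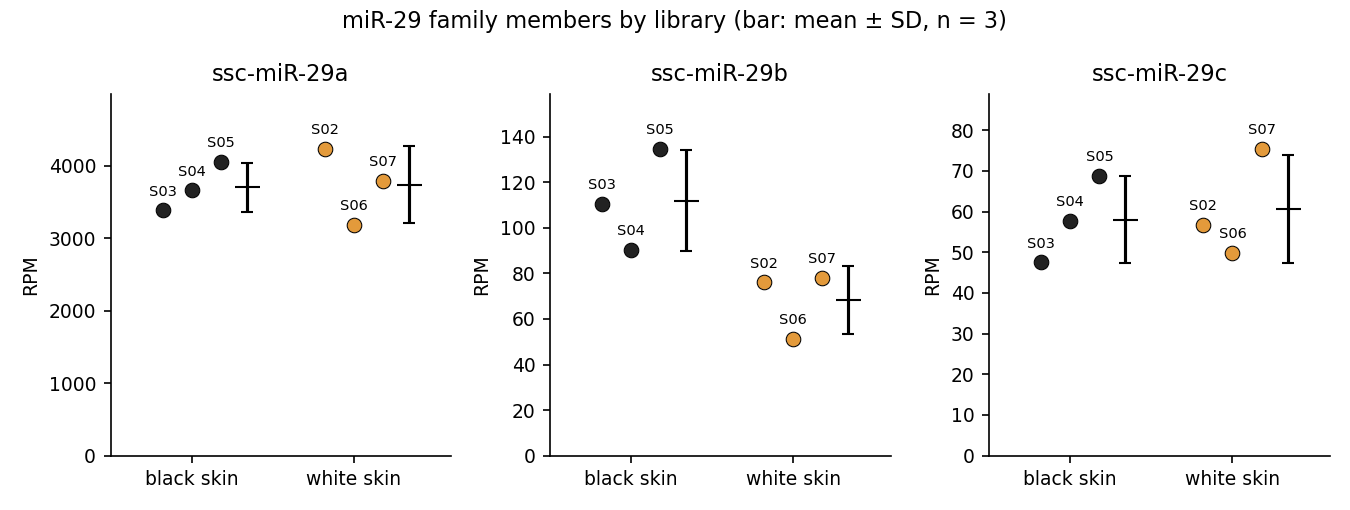
RPM of the 3 miR-29 members (one panel each, y axes from 0) in the black skin libraries (black points) and white skin libraries (orange points), with the mean and SD of each group beside the points (n = 3). The groups overlap for ssc-miR-29a and ssc-miR-29c, whereas the black libraries of ssc-miR-29b (90.4 to 134.7 RPM) all lie above the white ones (51.3 to 78.1 RPM).

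Thus none of the 3 members passed an adjusted p of 0.05, where 32 of the 454 tested miRNAs (7.05%) did, 18 (3.96%) higher and 14 (3.08%) lower in black skin. None passed either with TMM factors, which called 6.61% of the tested miRNAs, with edgeR (6.61%) or with DESeq2 (11.7%). All 3 had passed the filter on low reads. Counting error was small beside the spread between libraries. ssc-miR-29b rested on 663 to 1165 reads in a black library and 331 to 794 in a white one, a counting error of 2.9 to 5.5% of a value, while the libraries varied by 19.8% of the mean in black skin and 21.8% in white skin. ssc-miR-29c rested on 322 to 767 reads and ssc-miR-29a on 20538 to 38577.

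**Figure D2:**
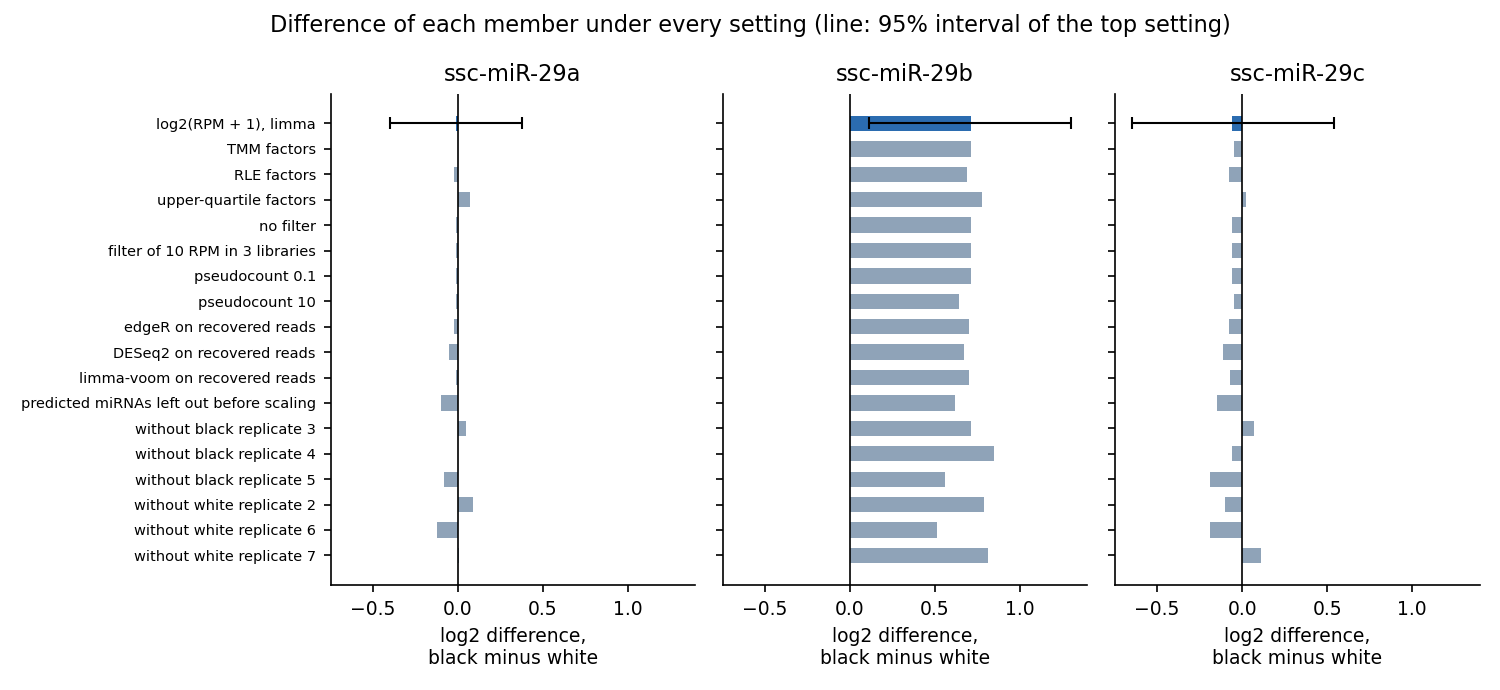
Log2 difference, black minus white (x axis), of each miR-29 member under the reported fit (blue, with its 95% interval) and under 17 other settings (grey; rows). Bars of ssc-miR-29b lie between 0.51 and 0.85, whereas those of ssc-miR-29a and ssc-miR-29c stay near 0 on either side.

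Ratios within a library do not depend on how the libraries are scaled, and they describe the proportions the members kept to each other. ssc-miR-29b stood at 3.26% (S03), 2.47% (S04) and 3.32% (S05) of the RPM of ssc-miR-29a in black skin, against 1.80% (S02), 1.61% (S06) and 2.06% (S07) in white skin. The groups did not overlap. As a log2 ratio of RPM + 1 this was -5.05 ± 0.24 in black skin and -5.76 ± 0.17 in white skin (SD, n = 3), a difference of 0.71 with a standard error of 0.17. ssc-miR-29c stood at 43.0% (S03), 63.8% (S04) and 51.1% (S05) of ssc-miR-29b in black skin, against 74.6% (S02), 97.3% (S06) and 96.6% (S07) in white skin, again without overlap. In 2 of the white libraries ssc-miR-29b and ssc-miR-29c were thus nearly equal in reads. That log2 ratio was -0.93 ± 0.28 in black skin and -0.17 ± 0.22 in white skin (SD, n = 3), a difference of -0.76 with a standard error of 0.20. The ratio of ssc-miR-29c to ssc-miR-29a, the members that each mark a single cluster, was 1.56 ± 0.149% in black skin and 1.63 ± 0.329% in white skin (SD, n = 3), with overlap (log2 difference -0.05, standard error 0.18). Two-sided exact permutation tests gave p = 0.1 for each of the ratios with ssc-miR-29b and p = 1 for ssc-miR-29c to ssc-miR-29a, or 0.15, 0.15 and 1 when adjusted over the 3 ratios. Both ratios without overlap rest on the same ssc-miR-29b values. Of the 454 tested miRNAs 27.3% had no overlap, and such a share was not counted over ratios. None of the 3 ratios can pass 0.05 by the permutation test.

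**Figure D3:**
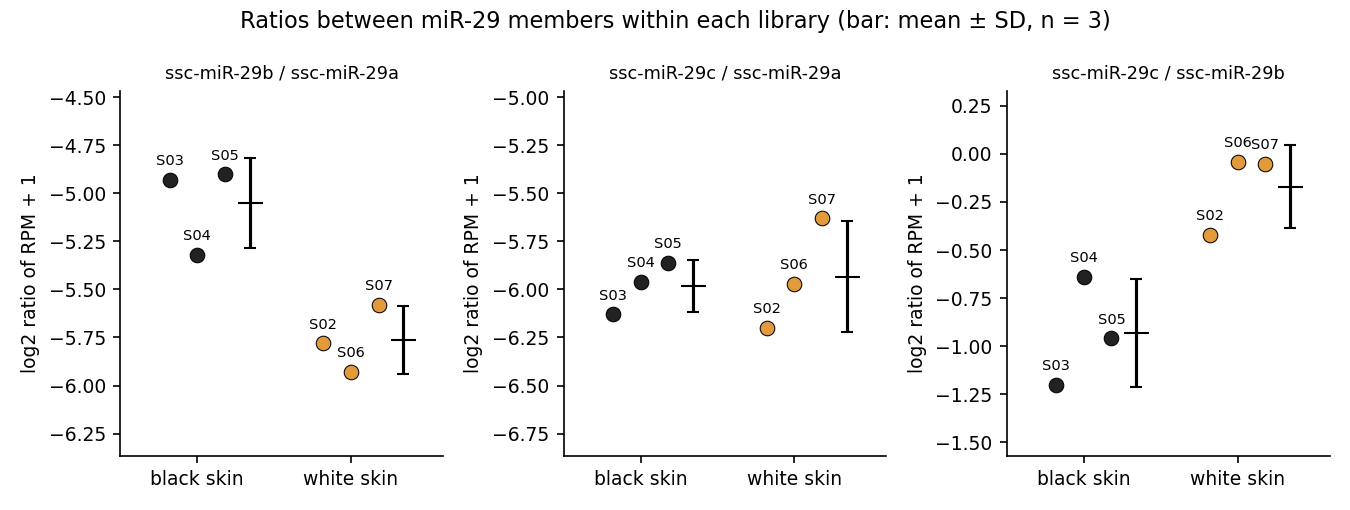
Log2 ratio of RPM + 1 between pairs of miR-29 members (one panel each, all spanning the same range on the y axis) in the black skin libraries (black points) and white skin libraries (orange points), with mean and SD (n = 3). Both ratios that involve ssc-miR-29b separate the groups, at -5.05 against -5.76 relative to ssc-miR-29a, and ssc-miR-29c to ssc-miR-29a does not. The separating ratios share the same ssc-miR-29b values.

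To set these ratios beside those of other families, limma was fitted to the log2 ratios of 51 pairs of tested miRNAs that share a family number and arm suffix and differ in their letter, in 17 families. A further 1 such pair, the 3p arms of miR-199a and miR-199b, was left out because its values are identical. This fit was chosen after the values had been seen, and pairs that share a member are not independent. Between black and white skin 9 of the 51 ratios (17.6%) passed an adjusted p of 0.05, and 2 of these were miR-29 ratios. The log2 ratio of ssc-miR-29b to ssc-miR-29a was higher in black skin by 0.71 (95% interval 0.27 to 1.16, limma adjusted p = 0.0243), and that of ssc-miR-29c to ssc-miR-29b was lower (-0.76, 95% interval -1.23 to -0.30, limma adjusted p = 0.0242). Both rest on the same ssc-miR-29b values. The ratio of ssc-miR-29c to ssc-miR-29a gave -0.05 (95% interval -0.50 to 0.40, limma adjusted p = 0.883). By size of the difference these ranked 10th, 8th and 47th of the 51, whose median size was 0.28. The calls depended on single libraries. That of ssc-miR-29b to ssc-miR-29a was lost without S03 (limma adjusted p = 0.162), S05 (0.155), S06 (0.0883) or S02 (0.0515), and that of ssc-miR-29c to ssc-miR-29b without S03 (0.170), S05 (0.0848) or S06 (0.0879).

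**Figure D4:**
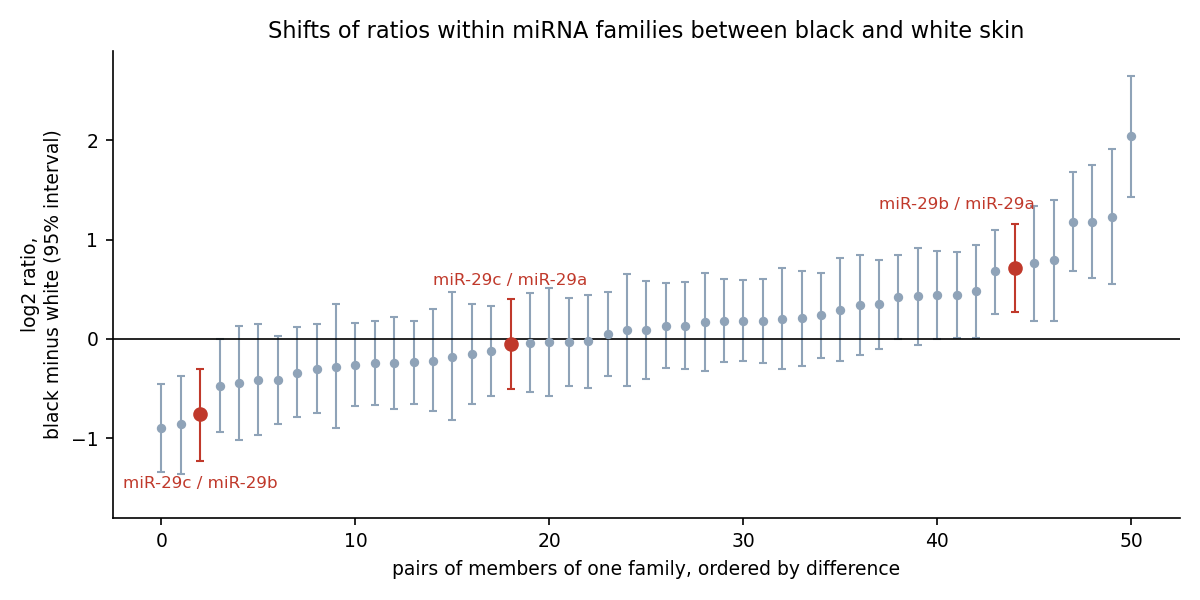
Difference between black and white skin in the log2 ratio of 2 members of a miRNA family (y axis, point and 95% interval), for 51 pairs ordered by size and sign along the x axis, with miR-29 pairs in red. The ratio of ssc-miR-29b to ssc-miR-29a lies at 0.71 and that of ssc-miR-29c to ssc-miR-29b at -0.76, towards the ends of the order, and ssc-miR-29c to ssc-miR-29a lies at -0.05.

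The members were also compared by their profiles over the 6 libraries. Likeness was measured as the root mean square difference between log2(RPM + 1) profiles centred on their means, so that a smaller value is more alike. It was 0.18 between ssc-miR-29a and ssc-miR-29c, 0.40 between ssc-miR-29a and ssc-miR-29b and 0.43 between ssc-miR-29b and ssc-miR-29c. Of the 241 other tested miRNAs with a porcine name, ssc-miR-29c was the 21st nearest to ssc-miR-29a, and ssc-miR-29b the 140th. Ranks depend on the member they are taken from: seen from ssc-miR-29b, ssc-miR-29a was the 66th nearest and ssc-miR-29c the 81st. Outside the family, the miRNAs nearest to ssc-miR-29a were ssc-miR-103 (0.09), ssc-miR-199a-5p (0.11) and ssc-let-7f (0.12). Those nearest to ssc-miR-29c were ssc-miR-199a-5p (0.13), ssc-miR-30a-5p (0.14) and ssc-miR-181a (0.15). For ssc-miR-29b they were ssc-miR-30e-5p (0.12), ssc-miR-126-5p (0.17) and ssc-miR-19b (0.17), against a median of 0.54 over the 239 candidates.

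The miRNA most like ssc-miR-29b, ssc-miR-30e-5p, measured 967 RPM (S03), 808 RPM (S04) and 1010 RPM (S05) in black skin, against 629 RPM (S02), 503 RPM (S06) and 612 RPM (S07) in white skin. In both miRNAs S04 was the lowest black library and S06 the lowest of all. The difference of ssc-miR-30e-5p was 0.68 and it too missed the threshold (limma adjusted p = 0.0629), which it passed with a filter of 10 RPM in 3 libraries (0.0471). The nearest miRNAs were picked for their likeness to ssc-miR-29b over these same libraries. A like difference and a like order of libraries follow from that choice. ssc-miR-126-5p, made by endothelial cells, rose in black skin, with means of 414 ± 14.8 RPM there and 227 ± 51.7 RPM in white skin (SD, n = 3; log2 difference 0.89, limma adjusted p = 0.0423). That call was lost with edgeR (0.0528), limma-voom (0.0501) and no filter (0.0852), and without any 1 of S03, S04, S05, S06 and S07 (0.0630 to 0.143).

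Markers of cell types that skin can hold were compared beside the members. In libraries of whole tissue, fewer cells of a type and less RNA per cell cannot be told apart. Of the epithelial list 2 of 7 names had a product with a porcine name, with miR-203 and miR-141 among those without. Predicted miRNAs were not matched to the lists, so a missing name does not show that the miRNA was absent. The list's defining member was ssc-miR-205, an miRNA of keratinocytes. It was abundant, at 14200 ± 2600 RPM in black skin and 19800 ± 4280 RPM in white skin (SD, n = 3). Its groups overlapped, and neither ssc-miR-205 (log2 difference -0.47, limma adjusted p = 0.204) nor ssc-miR-429 (-0.31, 0.546) was called. The summed endothelial list (miR-126, 2 products, both called higher with limma and neither with edgeR) ran from 28990 to 35450 RPM in black skin and from 17320 to 23900 RPM in white skin. The summed mesenchymal list (9 products, 1 higher and 1 lower) ran from 99130 to 109600 RPM in black skin and from 56500 to 76180 RPM in white skin, and includes ssc-miR-143-3p, a smooth muscle miRNA, at 69900 ± 10300 RPM in black skin and 28600 ± 3840 RPM in white skin (SD, n = 3). The 3p arms of miR-199a and miR-199b have identical values in the table and were both summed. Without ssc-miR-143-3p the other 8 mesenchymal products summed to 27980 to 36810 RPM in black skin and 32170 to 46610 RPM in white skin, with overlap and no longer higher in black skin. Other products of miR-143 and miR-145 were above 0 but not called. These were ssc-miR-143-5p (log2 difference 0.55, limma adjusted p = 0.215), ssc-miR-145-3p (0.6, 0.119) and ssc-miR-145-5p (0.36, 0.433). The endothelial sum and ssc-miR-143-3p were higher in black skin. Their part in the difference of ssc-miR-29b, which missed the threshold (limma adjusted p = 0.137), was not tested. The leukocyte list (4 products, 1 higher) ran from 900.9 to 1570 RPM in black skin and from 590.1 to 1321 RPM in white skin, with overlap. Its called product, ssc-miR-142-3p of blood cells, ran from 103 to 256 RPM in black skin and from 24.8 to 73.3 RPM in white skin without overlap (log2 difference 1.96, limma adjusted p = 0.0324), and its part in the ssc-miR-29b difference was likewise not tested. That call was lost without S03 (0.107), S05 (0.112) or S06 (0.116). The other 3 leukocyte products were not called and were mixed in direction. The more abundant arm, ssc-miR-142-5p, overlapped between the groups (log2 difference 0.6, limma adjusted p = 0.433). ssc-miR-150 was at 0.13 (0.869) and ssc-miR-155-5p at -0.1 (0.869). The sums of the striated muscle, melanocyte and erythroid lists also overlapped, with 5, 2 and 3 tested products. The reported limma fit called none of them. DESeq2 called 1 product of each, ssc-miR-206 of muscle lower (adjusted p = 0.0195), ssc-miR-204 of the melanocyte list higher (0.0469) and ssc-miR-486 of erythroid cells lower (0.0113), and edgeR called ssc-miR-206 alone of these (0.0495). With predicted miRNAs left out before scaling, limma called ssc-miR-206 (adjusted p = 0.0402) and ssc-miR-486 (0.0341) lower. It also called ssc-miR-206 without S02 (0.00209) and ssc-miR-486 without S05 (0.00924). The muscle and erythroid lists were mixed in direction. ssc-miR-206 (limma log2 difference -2.56) had overlapping groups, 4.77 to 14.6 RPM in black skin and 12.6 to 115 RPM in white skin. Of its list, ssc-miR-1 was at -0.12, but ssc-miR-133a-3p, ssc-miR-133b and ssc-miR-499-5p were at 0.53, 0.28 and 0.43. Of the erythroid list, ssc-miR-451 was at -0.87 and ssc-miR-144 at 1.24. ssc-miR-204 ran from 88.5 to 135 RPM in black skin and from 57.7 to 71.1 RPM in white skin, without overlap (log2 difference 0.82, limma adjusted p = 0.0804), and the far more abundant ssc-miR-146a-5p set the sum of its list. ssc-miR-486 ran from 7.49 to 28.9 RPM in black skin and from 34.4 to 52.0 RPM in white skin, also without overlap (-1.68, limma adjusted p = 0.0743).

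A list of other miRNAs linked in published work to collagen and the matrix was set beside the family. It has 26 names, of which 20 had a product with a porcine name, and 22 of the 25 products were tested. Names were matched exactly, so the arms of ssc-miR-129a were not counted under the listed name miR-129. ssc-miR-129a-3p and ssc-miR-129a-5p were higher in black skin without overlap but missed the threshold (log2 differences 1.32 and 0.85, limma adjusted p = 0.119 and 0.2). With limma 2 fell in black skin, none rose and 20 did not pass, with a median log2 difference of 0.04 against 0.00 over all 454 tested miRNAs, of which 7.05% were called, a share near that of the list. Among the repressors of matrix genes 1 of 14 fell, ssc-miR-196a, which lies in the HOX clusters and targets type I collagen mRNA in human fibroblasts. It measured 9.65 ± 1.15 RPM in black skin and 62.2 ± 5.92 RPM in white skin (SD, n = 3; log2 difference -2.57, limma adjusted p = 0.000371). This fall was not particular to the matrix list. Of other miRNAs of the HOX clusters, ssc-miR-196b-5p (-5.35, limma adjusted p = 4.5e-06) and ssc-miR-10a-5p (-1.775, 0.000371) were also lower, and ssc-miR-10b was not called (-0.495, 0.154). Among the miRNAs linked to matrix deposition 1 of 8 fell, ssc-miR-214, with a mean of 269 ± 42.1 RPM in black skin and of 497 ± 88.0 RPM in white skin (SD, n = 3; -0.88, limma adjusted p = 0.0408). The call of ssc-miR-214 was lost with TMM factors (adjusted p = 0.054), upper-quartile factors (0.0625) and no filter (0.0845), and without any 1 of S03, S04, S05, S06 and S07 (0.0731 to 0.159). The 4 most abundant members were ssc-miR-21, which is raised in fibrotic tissue, ssc-let-7g, ssc-miR-26a and ssc-let-7a, with log2 differences of 0.19, -0.31, 0.53 and -0.50 and limma adjusted p of 0.730, 0.221, 0.148 and 0.0804. Of these, ssc-miR-26a passed without S02 (0.0237) and ssc-let-7a with predicted miRNAs left out before scaling (0.0391). ssc-miR-101 had the largest difference above 0, 1.48, and missed the threshold (limma adjusted p = 0.0804), but passed without S02 (2.06, 0.00209) and with DESeq2 (0.0403).

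**Figure D5:**
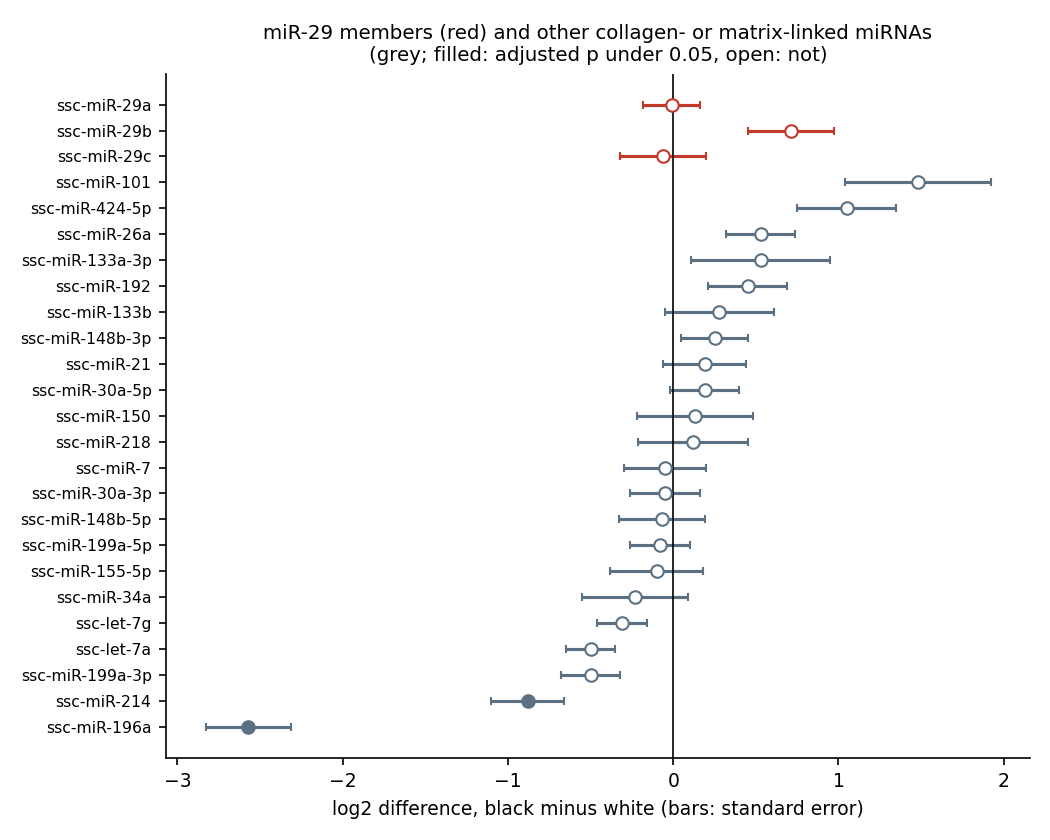
Log2 difference, black minus white (x axis, bars: standard error), of the 3 miR-29 members (red) and 22 other miRNAs linked to collagen or matrix genes (grey), with filled points for an adjusted p under 0.05. Filled points are ssc-miR-196a at -2.57 and ssc-miR-214 at -0.88, and no miR-29 member is filled.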

How the data were processed

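Small RNA libraries of 3 black and 3 white skin samples were compared. The authors deposited 1 table of values in RPM, a unit read from the column sums of 1e+06. The submitters' processing notes name Bowtie and build Sscrofa11.1, with no version and no role. The sources used here do not name the counting tool, miRNA database release or filters. Dividing each library by its smallest value above 0 gave whole numbers for 100% of entries (tolerance 0.001), which were taken as reads. All 6 columns were used.

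Groups were compared with limma 3.58.1 (R 4.3.3) on log2(RPM + 1) values, with a trend on intensity and Benjamini-Hochberg adjustment over the 454 miRNAs kept by edgeR 4.0.16's filterByExpr (minimum count 10, minimum total 15), which hold 99.98% or more of every library's reads. This scale understates changes of scarce miRNAs. RPM are shares of a total and move when an abundant miRNA does. edgeR, limma-voom and DESeq2 1.42.0 on recovered reads were alternatives: edgeR called 30 miRNAs and DESeq2 53. Tested on 20 simulated data sets with 200 of 454 miRNAs changed, the fit found 44.8% of the 2-fold changes and 92.8% of the 4-fold ones, and 2.71% of its calls were false. That is far more changed miRNAs than the 32 called here, which eases passing the adjusted threshold, so recovery in these data may be lower. In simulations of 51 ratios of randomly drawn miRNAs, it recovered 78.1% of those shifted at least 4-fold. Recovery of smaller shifts, such as those of the ssc-miR-29b ratios, was not scored.

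Members and lists were chosen with earlier results of these data known. Named were the 3 members, the 3 nearest profiles of each, and of the matrix list the 4 most abundant and the called members. ssc-miR-101, the arms of ssc-miR-129a, the HOX-cluster miRNAs beside ssc-miR-196a and the single cell type markers were chosen after their values were seen. No 2 libraries were duplicates (smallest chi-square per degree of freedom 249). Precursors come from a RefSeq gene table. Mature sequences were not used here.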

Additional observations from a re-analysis of the deposited data

How the results depend on the processing

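No paired analysis was possible because no library code occurs in both groups. The planned test of arm ratios was not run, since each member is listed without an arm, and the search for other miRNAs with the miR-29 seed was not run without sequences. ssc-miR-29b stayed above 0 and above an adjusted p of 0.05 in all 17 alternatives (0.62 to 0.78 in 11 of them, 0.51 to 0.85 without 1 library, adjusted p 0.109 to 0.358). Scaled without the predicted miRNAs, the median of all tested miRNAs was -0.14 and ssc-miR-29b gave 0.62. With upper-quartile factors ssc-miR-29a turned to 0.07 and ssc-miR-29c to 0.02. Without 1 library, ssc-miR-29a ran from -0.12 to 0.09, ssc-miR-29c from -0.19 to 0.11 and the log2 ratio of ssc-miR-29c to ssc-miR-29a from -0.18 to 0.10. None of these passed the test. In the fit over family pairs, without 1 library, ssc-miR-29b to ssc-miR-29a ran from 0.63 to 0.85 (adjusted p 0.00669 to 0.162) and ssc-miR-29c to ssc-miR-29b from -0.91 to -0.63 (0.0119 to 0.170), and both kept their calls with pseudocounts of 0.1 and 10. The family's share of reads, black minus white, was -0.028 points of the reads with a porcine name and -0.029 to 0.025 points without 1 library. Calls over all miRNAs numbered 53 with DESeq2 and 7 to 41 without 1 library. Of the matrix list, DESeq2 called 1 higher and TMM factors left 1 lower. Causes were not tested.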
